A study of Mus musculus with 6 samples.

Results

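A set of 10 genes of the cell cycle brake were followed, chosen by name from the gene symbols of the array: the CDK inhibitors Cdkn1a, Cdkn1b, Cdkn2a, Cdkn2b, Cdkn2c and Cdkn2d, the tumour suppressor Trp53, the p53-linked genes Mdm2 and Ccng1, and cyclin D1 (Ccnd1). Of the 10 genes, 9 have a probe, and these 9 are among 19084 genes with a symbol. Cdkn2a has 2 probes and each of the others 1, so that 10 probes were read, and all 9 genes were among the 15459 that passed the filter on low values. Expression of Trp53 was not analysed here.

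RNA was measured on 6 single-colour Cy5 arrays, in 3 groups of 2, all from mice of the outbred strain ICR with no engineered allele in the labels. GSC colony arrays held colonies that pooled testicular cells of 80 newborn to P2 mice had formed in 7 days. CD49f+ sorted arrays held cells pulled with magnetic beads by the integrin CD49f from the pooled testes of 100 newborn to P2 mice. PGC colony arrays held colonies that pooled gonadal cells of 67 embryos at E11.5 had formed in 7 days. Primordial germ cells is the spelled-out form of PGC in the labels, and glandular stem cells that of GSC. Both kinds of colony grew under 5% O2 on laminin (200 ng/cm2) in MCDB-201 medium with insulin, transferrin, selenium and EGF at 10 ng/ml, and colonies were picked, whose cell makeup the labels do not give. The sorted cells were not cultured, and their oxygen is labelled only as physiological hypoxia. Culture, colony picking and the sort therefore cannot be told apart when colonies are set against sorted cells, and PGC colonies differ from both other groups in stage as well. The labels do not give the sex of the embryos, while the other groups are testicular, so sex cannot be told apart from stage in the PGC colony values either. The 2 arrays of a group carry different replicate numbers, but nothing says that they came from separate animals or cultures, so every p measures only the spread between these arrays.

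CDK inhibitors are small proteins that stop the kinases driving a cell from G1 into S phase. The CIP/KIP proteins p21 (Cdkn1a) and p27 (Cdkn1b) bind cyclin-CDK complexes broadly, while the INK4 proteins p16 (from Cdkn2a), p15 (Cdkn2b), p18 (Cdkn2c) and p19 (Cdkn2d) hold CDK4 and CDK6 away from cyclin D. Free cyclin D kinase phosphorylates RB and releases E2F factors, which switch on S phase genes. p53 raises the transcription of Cdkn1a, Mdm2 and Ccng1, and the Mdm2 protein in turn marks p53 for destruction, while ARF, the other product of Cdkn2a, blocks Mdm2. In the fetal testis germ cells leave the cycle and stay arrested until after birth, and p27 and p15 are known for their part in that arrest. In the postnatal testis p27 and p21 limit the division of Sertoli cells.

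The median deposited intensity was 541 to 606 on the colony arrays and 393 and 406 on the sorted arrays, and values were brought to a common scale before any comparison. The GSC colony replicates differed most: 179 probes were over 4-fold lower and 86 over 4-fold higher on replicate 1 than on replicate 2, against 16 and 8 in the PGC colony pair. The germ cell label was checked with 18 germ cell genes. Dppa3, Sall4, Stra8, Taf4b and Tdrd1 lay under the 30th percentile of the array on both arrays of every group, as did Zbtb16 in sorted cells and Zbtb16 and Dazl in PGC colonies. The 13 genes other than those first 5 were measured, Ddx4 (9.72 to 10.27) and Nanos2 (10.76 to 11.16) among them above that percentile on every array. Of the 13, 5 were higher and 4 lower in GSC colonies than in sorted cells, and 1 was higher and 6 lower in PGC colonies. Of all genes tested, 47.1% and 46% were called in these comparisons. In GSC colonies Zbtb16 was at least 6.17-fold higher, Dazl at 1.45 ± 0.18 and Uchl1 at -2.02 ± 0.15. Zbtb16, counted among the 5, passed the filter only through the GSC colony arrays, where it is high. It was not tested without GSC colony replicate 1. Summed levels of the 18 were 15500 to 17100 in GSC colonies, 26900 to 28200 in sorted cells and 14200 to 15400 in PGC colonies. Marker lists of other cells separated colonies from sorted cells. Summed levels of 15 fibroblast genes were 682000 to 684000 in GSC colonies, 461000 to 471000 in PGC colonies and 131000 to 148000 in sorted cells. Those of 16 Sertoli genes were 340000 to 341000, 291000 to 315000 and 1020000 to 1090000, those of 13 leukocyte genes 7630 to 8080, 15800 to 19000 and 164000, and those of 12 endothelial genes 23700 to 25500, 12600 to 12800 and 63800 to 65800. Of the measured fibroblast genes 12 of 13 were higher in GSC colonies than in sorted cells, while 15 of 16 Sertoli, 13 of 13 leukocyte and 10 of 12 endothelial genes were lower. In PGC colonies the counts were 12 of 13 higher, and 16 of 16, 13 of 13 and 12 of 12 lower. Amh, Rhox5, Adgre1, C1qb, Fcgr3 and Tyrobp lay under the 30th percentile on both GSC colony arrays, Rhox5 on both PGC colony arrays, and Col1a1 and Fbln1 on all arrays. In PGC against GSC colonies 10 of 13 leukocyte genes were higher and 1 lower, and 3 of 13 fibroblast genes were higher and 7 lower. Of all genes tested, 7.08% were higher and 7.98% lower there. These lists move together with the colony against sorted differences called here. Between the colony groups the leukocyte and fibroblast lists differ, while 13 of 16 Sertoli and 8 of 12 endothelial genes did not pass. The part of these lists in any result was not tested. In such bulk RNA fewer cells of a type and less RNA per cell cannot be told apart.

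Counted together, 7 of the 9 measured genes passed in GSC colonies against sorted cells (5 higher, 2 lower), where 47.1% of all genes tested did (22.5% higher, 24.5% lower), and their median difference was 0.52 against -0.01 over all genes. In PGC colonies against sorted cells 7 of 9 passed (5 higher, 2 lower), where 46% of all genes did (22.8% higher, 23.2% lower), with a median of 0.52 against -0.02. Between the colony groups 3 of 9 passed (Cdkn2a and Cdkn2b higher, Ccng1 lower in PGC colonies), where 15.1% of all genes did (7.08% higher, 7.98% lower), with a median of 0.02 against 0.01. The first 2 comparisons share the sorted arrays and the 3 share colony arrays, so they are not separate evidence. Cdkn1a, Cdkn2a, Cdkn2b, Mdm2 and Ccng1 were higher in each kind of colony than in sorted cells under all 4 scalings, while the lower calls of Ccnd1 and Cdkn2c were not made without scaling.

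To place the p53-linked members, the windows of RefSeq gene starts (GRCm38.p6, 250 bases before to 50 after each start) were searched for the p53 full-site consensus, which is 20 letters long, made of 2 units of 10 letters with no spacer, with at most 1 mismatch outside the fixed C and G of each unit. The consensus is its own reverse complement, so both strands were read at once. Of 32851 windows 22 (0.067%) held a match. Of the members, 9 have windows there, 12 in all, Trp53 among them. A match was held by 2 windows: the upstream one of Cdkn1a and the one of Ccng1. Ccnd1 has no entry in that table. The 250 bases before these starts are shown because their windows held the match. The other Cdkn1a window held none and is not shown. That of Cdkn2b is shown because it gave the largest difference among the INK4 genes. Capitals mark the p53 match in the first pair and the exact letters TGACGTCA, the cAMP response element, in the third.
Cdkn1a, chr17:29090729-29090978, plus strand: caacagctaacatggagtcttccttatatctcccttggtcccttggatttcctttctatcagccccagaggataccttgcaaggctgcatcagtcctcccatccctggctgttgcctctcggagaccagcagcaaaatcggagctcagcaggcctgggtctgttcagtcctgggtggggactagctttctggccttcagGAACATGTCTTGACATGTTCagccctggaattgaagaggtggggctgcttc
Ccng1, chr11:40755287-40755536, minus strand: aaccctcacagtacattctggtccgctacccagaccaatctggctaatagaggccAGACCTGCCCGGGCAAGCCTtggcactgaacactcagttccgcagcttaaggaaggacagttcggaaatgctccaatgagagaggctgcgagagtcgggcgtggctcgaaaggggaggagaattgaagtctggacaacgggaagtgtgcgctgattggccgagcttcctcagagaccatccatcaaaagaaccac
Cdkn2b, chr4:89311033-89311282, minus strand: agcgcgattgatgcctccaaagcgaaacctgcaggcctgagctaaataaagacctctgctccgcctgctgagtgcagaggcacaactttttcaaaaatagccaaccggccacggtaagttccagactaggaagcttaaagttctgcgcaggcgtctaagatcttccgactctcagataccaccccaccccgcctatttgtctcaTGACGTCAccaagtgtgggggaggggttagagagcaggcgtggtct
The match begins 51 bases before the start in Cdkn1a and 195 bases before it in Ccng1, each with 1 mismatch. TGACGTCA begins 46 bases before the start of Cdkn2b and occurs in 1.79% of all windows on either strand. The GC box GGGCGG, which is in 35.7% of all windows, was found in windows of Cdkn1a, Cdkn1b, Cdkn2a, Cdkn2b, Cdkn2c, Cdkn2d and Mdm2. The window of Mdm2 held no p53 match, and none of these matches shows that a factor bound in these cells.

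Cdkn1a, which encodes p21, was far higher in both kinds of colony than in sorted cells. Its normalized log2 intensity read 15.61 and 15.50 in GSC colonies, 11.01 and 10.83 in sorted cells, and 15.59 and 15.87 in PGC colonies. All 4 colony arrays lie far above both sorted arrays, and the colony groups overlap. As deposited, before any scaling, the intensity was 62746 and 58919, 1531 and 1407, and 53836 and 66050 in the same order. The difference from sorted cells was 4.64 ± 0.14 on the log2 scale (SE, 2 arrays a group) in GSC colonies, or 24.8-fold (limma, adjusted p = 3.42e-06). In PGC colonies it was 4.81 ± 0.14, or 28-fold (adjusted p = 4.71e-06). Every one of 18 alternative settings kept both calls, with log2 differences from 4.55 to 5.31 and from 4.65 to 5.28. Between the colony groups Cdkn1a did not pass the test (0.17 ± 0.14, 95% CI -0.17 to 0.52, adjusted p = 0.461), and the sign turned under 2 of the scalings.

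Cdkn1b, which encodes p27, did not pass the test in any comparison, and its values rest on one library. It read 7.80 and 9.97 in GSC colonies, 9.92 and 9.49 in sorted cells, and 9.77 and 9.80 in PGC colonies. GSC colony replicate 1 is the low one, just under the 30th percentile level of 7.82, and the other 5 arrays lie between 9.49 and 9.97. The difference from sorted cells was -0.82 ± 0.63 in GSC colonies (adjusted p = 0.338) and 0.09 ± 0.63 in PGC colonies (adjusted p = 0.933). Without GSC colony replicate 1 the GSC colony value was 0.26 above sorted cells, and without replicate 2 it was -1.89 with an adjusted p of 7.74e-05. PGC colonies stood 0.91 ± 0.63 above GSC colonies (adjusted p = 0.394), -0.18 without GSC colony replicate 1 and 1.97 without replicate 2. In the list of the other CDK inhibitors and p27 turnover genes, 6 of 10 were measured, of which 1 was higher and 3 lower in GSC colonies than in sorted cells and 1 was higher and 2 lower in PGC colonies. Of all genes tested, 47.1% and 46% were called in these comparisons. Cdkn1c, which encodes the third CIP/KIP inhibitor p57, rose by 2.19 ± 0.10 in GSC colonies and 1.50 ± 0.10 in PGC colonies against sorted cells, and was at -0.69 ± 0.10 in PGC against GSC colonies. Skp2, the ubiquitin ligase subunit that marks p27 for destruction, fell by 1.31 ± 0.12 in GSC colonies and fell by 0.91 ± 0.12 in PGC colonies. Cdkn3, a phosphatase acting on CDKs, stood at -0.96 ± 0.11 and -1.11 ± 0.11.

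**Figure D1:**
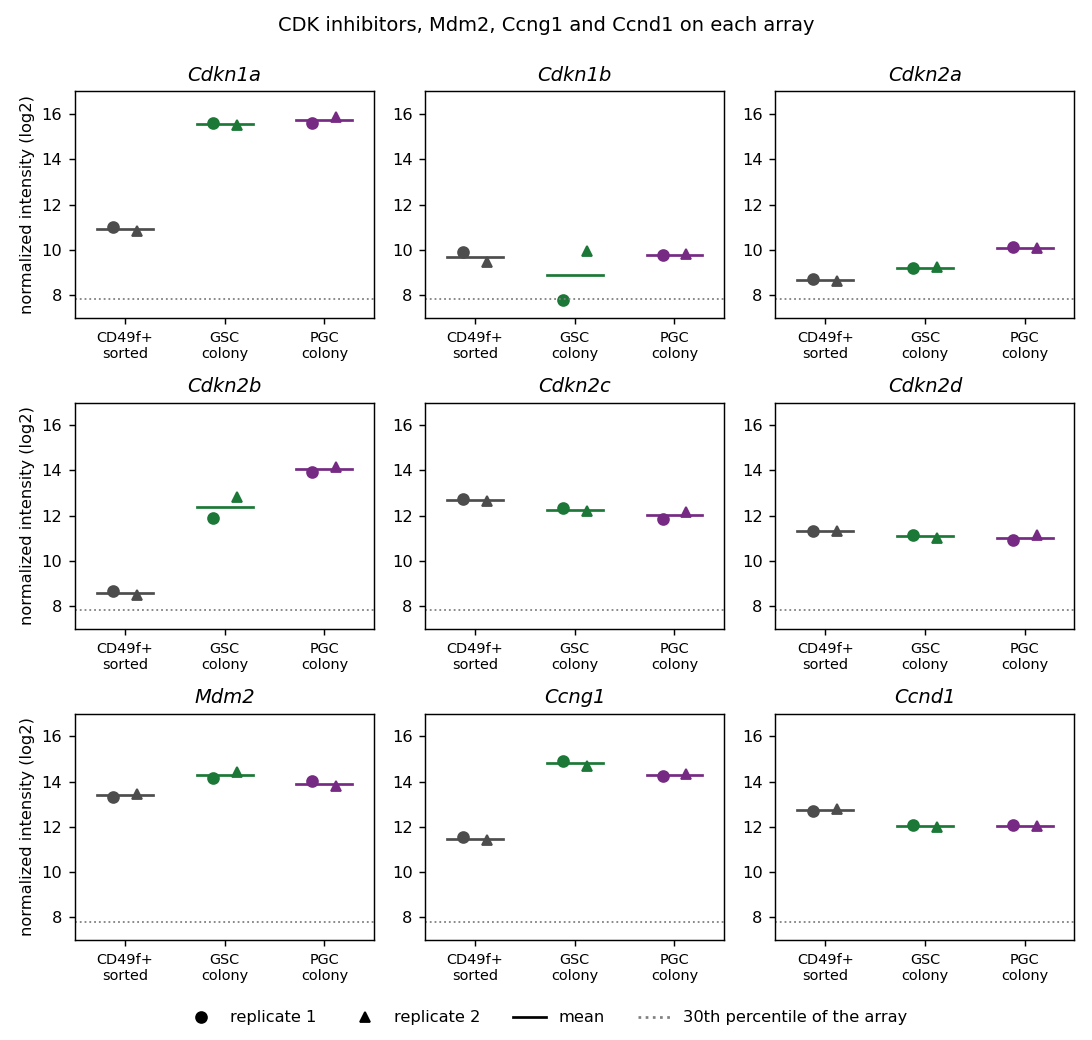
Normalized log2 intensity (y axis) of the 9 measured genes on each array, by group (x axis); circles are replicate 1, triangles replicate 2, bars the group mean and the dotted line the 30th percentile level of 7.82. Cdkn1a reads 15.50 to 15.87 on the 4 colony arrays against 10.83 and 11.01 on the sorted arrays, and Cdkn1b is low on GSC colony replicate 1 alone (7.80).

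Among the INK4 genes, Cdkn2b had the largest range and was ordered sorted, GSC colony, PGC colony. The Cdkn2b intensity, for the gene of p15, was 11.89 and 12.85 in GSC colonies, 8.66 and 8.48 in sorted cells, and 13.92 and 14.17 in PGC colonies. No 2 groups overlap, and the GSC colony pair lies nearly 1 log2 unit apart (SD 0.68, n = 2). As deposited the values were 4237 and 8653, 271 and 240, and 16719 and 20591. Against sorted cells the gain was 3.80 ± 0.30 in GSC colonies (13.9-fold, adjusted p = 0.000129) and 5.48 ± 0.30 in PGC colonies (44.5-fold, adjusted p = 3.28e-05). PGC colonies stood 1.68 ± 0.30 above GSC colonies (3.20-fold, adjusted p = 0.015), a call lost without PGC colony replicate 1 (1.81, adjusted p = 0.0652) or replicate 2 (1.55, adjusted p = 0.101).

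Cdkn2a, the neighbouring gene of Cdkn2b on chromosome 4, gives p16 and ARF from separate starts, and its probes were not assigned to either product. Its brighter probe read 9.20 and 9.23 in GSC colonies, 8.73 and 8.65 in sorted cells, and 10.11 and 10.07 in PGC colonies. The groups do not overlap, in the same order as for Cdkn2b. Against sorted cells it was 0.52 ± 0.10 higher in GSC colonies (adjusted p = 0.00665, and 0.0561 without sorted replicate 2) and 1.40 ± 0.10 higher in PGC colonies (adjusted p = 9.83e-05), and PGC colonies were 0.88 ± 0.10 above GSC colonies (adjusted p = 0.00287). The dimmer probe read 8.02 and 7.91, 7.34 and 6.59, and 8.35 and 8.71. Both sorted arrays lie under the 30th percentile level, so the colony gain on that probe is given as at least 1.11-fold in GSC colonies and at least 1.63-fold in PGC colonies, with adjusted p of 0.0193 and 0.00319 over all probes. The probe passed the filter only through the colony arrays, where it is higher, so these p are not separate support. In PGC against GSC colonies that probe gave 0.56 ± 0.26 (adjusted p = 0.208), not past the threshold that the brighter probe passed.

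Cdkn2c and Cdkn2d, for p18 and p19, did not follow this order. Cdkn2c read 12.35 and 12.20 in GSC colonies, 12.72 and 12.64 in sorted cells, and 11.87 and 12.17 in PGC colonies. The sorted arrays are the highest, and no groups overlap. The GSC colony difference from sorted cells was -0.41 ± 0.14 (adjusted p = 0.0498), which was lost in 11 of 18 alternatives and was 0.17 without scaling between arrays. The PGC colony difference was -0.67 ± 0.14 (adjusted p = 0.0085), lost without scaling (-0.15) and without sorted replicate 1. Cdkn2d read 11.15 and 11.03, 11.34 and 11.33, and 10.94 and 11.13 in the same order of groups. The colony groups overlap, and both sorted arrays lie above them. Its differences of -0.24 ± 0.12 in GSC colonies (adjusted p = 0.144) and -0.30 ± 0.12 in PGC colonies (adjusted p = 0.0868) did not pass, and both were above 0 without scaling (0.29 and 0.20). The colony groups did not pass for either gene (-0.25 ± 0.14, adjusted p = 0.284, and -0.05 ± 0.12, adjusted p = 0.809).

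**Figure D2:**
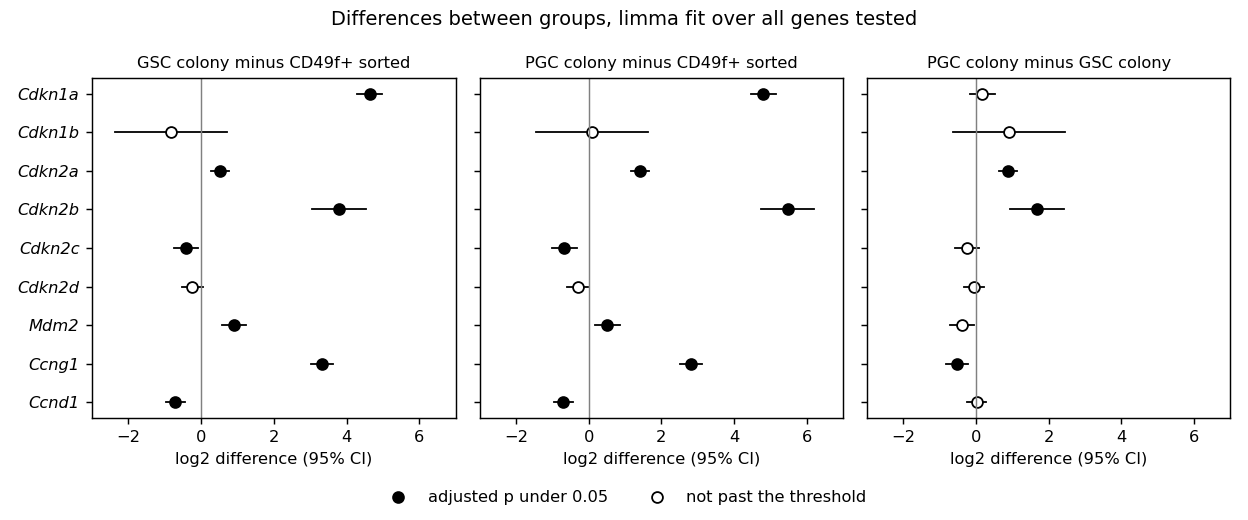
Log2 difference (x axis) of each measured gene (y axis) in the 3 comparisons, with 95% confidence intervals from the limma fit; filled points have an adjusted p under 0.05. The intervals of Cdkn1a, Cdkn2b and Ccng1 lie far to the right of 0 in both colony against sorted comparisons, and the Cdkn1b interval is the widest in each. Differences without scaling between arrays are not drawn here. In them Cdkn2c was above 0 in GSC colonies against sorted cells and Cdkn2d in either kind of colony.

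Of 22 measured genes that regulate the Cdkn2a and Cdkn2b locus, 7 were higher and 4 lower in GSC colonies than in sorted cells, a share near the 47.1% of all genes called there. In PGC colonies, where 46% of all genes were called, 10 were higher and 6 lower. Without scaling the counts were 13 and 2 in GSC colonies, and 15 and 2 in PGC colonies. The unscaled list medians were 0.600 and 0.681, beside 0.465 and 0.423 over all genes. Tbx3, a T-box repressor of Cdkn2a, was 2.83 ± 0.13 higher in GSC colonies than in sorted cells, and at -2.40 ± 0.13 in PGC against GSC colonies. Tbx2, another such repressor, was at least 3.64-fold higher in PGC colonies than in sorted cells and 1.28 ± 0.13 higher than in GSC colonies. Tbx2 passed the filter only through the colony arrays, where it is higher. Cbx6, a Polycomb protein, was 2.03 ± 0.13 higher in GSC colonies, while the Polycomb methyltransferase Ezh2 stood at -1.31 ± 0.11 and its partner Suz12 at -1.02 ± 0.11, the last call lost without scaling. Cbx2, another Polycomb protein, fell by 0.90 ± 0.14 in PGC colonies against sorted cells. Id1, an inhibitor of E-box factors, was 2.24 ± 0.13 higher in PGC colonies than in sorted cells. Id3 was 0.79 ± 0.18 higher in PGC than in GSC colonies, a call lost under 3 scalings and without GSC colony replicate 1, PGC colony replicate 2 or either sorted array (0.52 to 0.79).

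The p53-linked members Ccng1 and Mdm2 were higher in both kinds of colony than in sorted cells. Ccng1, the gene of cyclin G1, read 14.91 and 14.71 in GSC colonies, 11.56 and 11.41 in sorted cells, and 14.24 and 14.35 in PGC colonies. All 4 colony arrays are above both sorted arrays, and both GSC colony arrays above both PGC colony arrays. The gain was 3.33 ± 0.13 (10-fold, adjusted p = 6.64e-06) and 2.81 ± 0.13 (7.02-fold, adjusted p = 1.5e-05), called under all 18 alternatives each. PGC colonies were at -0.51 ± 0.13 from GSC colonies (adjusted p = 0.0435), a call lost in 10 of 18 alternatives, the replicate block among them (adjusted p = 0.0761).

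Mdm2, the ubiquitin ligase of p53, read 14.18 and 14.41 in GSC colonies, 13.32 and 13.47 in sorted cells, and 14.01 and 13.82 in PGC colonies. The sorted arrays are the lowest and no groups overlap. The gain over sorted cells was 0.90 ± 0.14 in GSC colonies (1.87-fold, adjusted p = 0.00217) and 0.52 ± 0.14 in PGC colonies (1.43-fold, adjusted p = 0.0215). The second call was lost without sorted replicate 1, sorted replicate 2 or PGC colony replicate 1. PGC colonies were -0.38 ± 0.14 from GSC colonies (adjusted p = 0.124).

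In a list of 35 genes known as p53 targets, 33 were measured. Of these, 18 were higher and 5 lower in GSC colonies than in sorted cells, with a median difference of 0.60 against -0.01 over all genes tested, and 18 were higher and 5 lower in PGC colonies (median 0.62 against -0.02). Of all genes tested, 22.5% were higher and 24.5% lower in GSC colonies, and 22.8% and 23.2% in PGC colonies. Without scaling 24 were higher and 4 lower, and 26 higher and 5 lower, but the medians of all genes then stood at 0.465 and 0.423. The list median exceeded that of all genes by 0.446 and 0.595 without scaling, and by 0.611 and 0.635 with it. Phlda3, an inhibitor of Akt signalling, had the largest rise of the list in each, at 4.10 ± 0.19 and 4.34 ± 0.19. Ak1, an adenylate kinase, stood at 3.64 ± 0.14 and 4.03 ± 0.14. The other 16 higher genes in GSC colonies lay between 0.52 and 3.16, except that Aen, under the 30th percentile on both sorted arrays, is given as at least 1.28-fold. They were Aen, Bbc3, Eda2r, Ei24, Fas, Gadd45a, Perp, Plk3, Pmaip1, Polk, Rchy1, Rrm2b, Tigar, Tnfrsf10b, Trp53inp1 and Zmat3. Aen passed the filter only through the colony arrays, where it is higher. Epha2, a receptor tyrosine kinase, stood at -2.37 ± 0.11 and -2.23 ± 0.11 in GSC and PGC colonies, and the stress gene Sesn1 at -1.56 ± 0.10 and -1.28 ± 0.10. The other lower genes in GSC colonies were Ddb2 (-0.84), Trp53i11 (-0.45) and Sfn, which was at least 2.28-fold lower, since both GSC colony arrays lie under the 30th percentile. Between the colony groups 4 rose and 4 fell, where 7.08% of all genes were higher and 7.98% lower. Plk2 was 1.72 ± 0.21 and Eda2r 0.95 ± 0.20 higher in PGC colonies, while Rrm2b and Pmaip1 were both at -0.76. The Eda2r call was lost without scaling, under median centring and without any 1 array other than GSC colony replicate 2 (0.68 to 1.11). The Rrm2b call was lost without PGC colony replicate 2 (-0.62, adjusted p = 0.0542). The p53 match was found in 1 of the 27 list genes with a window, Rps27l, in 1 of its 2 windows. Several of the 27 genes have more than 1 window, so this count of genes cannot be set against the 0.067% of windows. The 22 windows with a match belong to 22 genes, of which 7 were measured. In GSC colonies 3 of the 7 were higher than in sorted cells, Cdkn1a, Ccng1 and Calhm2 (1.03 ± 0.11, adjusted p = 0.00051), and 1 was lower, Mthfd1 (-1.39 ± 0.19, adjusted p = 0.00125). Of all genes 22.5% were higher and 24.5% lower there. Cdkn1a and Ccng1 are members of the followed set, so this count is not separate evidence. Rps27l (0.19), Gtse1 (-0.39) and Sptbn4 (0.08) did not pass.

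Of 16 measured regulators of p53, 2 were higher and 5 lower in GSC colonies and 2 were higher and 3 lower in PGC colonies than in sorted cells. The 7 of 16 called in GSC colonies is a share near the 47.1% of all genes. The 5 of 16 in PGC colonies is below the 46% of all genes. Without scaling 7 were higher with 0 lower, and 8 higher with 0 lower. The unscaled list medians (0.379 and 0.391) lay below those of all genes (0.465 and 0.423). Hipk2, a kinase that acts on p53, was 0.46 ± 0.14 and 0.49 ± 0.14 higher, but the GSC colony call was lost without either array of GSC colonies or of sorted cells (0.40 to 0.52), and the PGC colony call without either sorted array or PGC colony replicate 1 (0.33 to 0.55). The checkpoint kinase gene Atr stood at -0.80 ± 0.13 in either kind of colony, a call that did not hold without scaling (adjusted p = 0.132 and 0.0907).

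Ccnd1, the gene of cyclin D1, was lower in both kinds of colony than in sorted cells after scaling between arrays. It read 12.09 and 11.99 in GSC colonies, 12.72 and 12.79 in sorted cells, and 12.09 and 12.02 in PGC colonies. The sorted arrays are the highest, and the colony groups share their values. The difference from sorted cells was -0.71 ± 0.11 in GSC colonies (adjusted p = 0.00204) and -0.70 ± 0.11 in PGC colonies (adjusted p = 0.00233). Without scaling it was -0.14 (adjusted p = 0.302) and -0.18 (adjusted p = 0.214), and the deposited intensities were 4923 and 4714, 5039 and 5573, and 4784 and 4617. Leaving out scaling puts the median difference of all genes at 0.465 and 0.423 on the log2 scale, and Ccnd1 lies below the median of all genes either way. PGC colonies differed from GSC colonies by 0.02 ± 0.11 (adjusted p = 0.943).

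**Figure D3:**
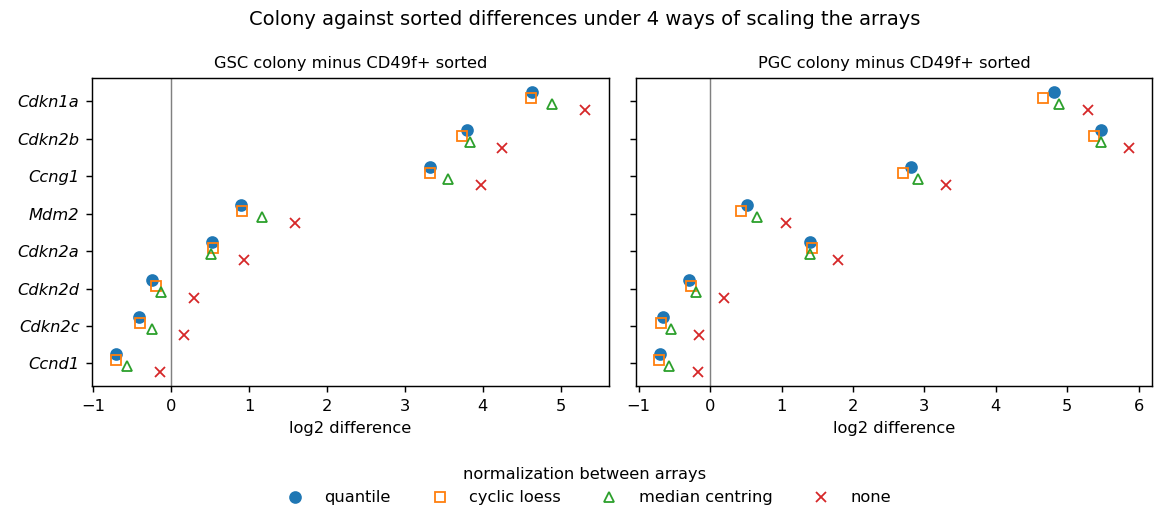
Log2 difference from sorted cells (x axis) of 8 genes (y axis; Cdkn1b is not drawn because of its one low array) in GSC and PGC colonies, with arrays scaled by quantiles, cyclic loess, median centring or not at all. Cdkn1a, Cdkn2b, Ccng1, Mdm2 and Cdkn2a stay right of 0 throughout, and without scaling Cdkn2c (0.17) and Cdkn2d (0.29) cross 0 in GSC colonies and Cdkn2d (0.20) in PGC colonies.

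Around cyclin D1, 20 genes of the cyclin D, CDK4/6 and RB-E2F axis were measured, of which 4 were higher and 11 lower in GSC colonies (median -0.45) and 3 were higher and 8 lower in PGC colonies (median -0.38). Of all genes tested, 22.5% were higher and 24.5% lower in GSC colonies, and 22.8% and 23.2% in PGC colonies. These shares also stand beside the list counts that follow. Without scaling the counts were 6 and 6, and 5 and 5, and both medians were above 0 (0.12 and 0.13), below those of all genes (0.465 and 0.423). Ccne1 rose by 1.61 ± 0.11 and 1.67 ± 0.11 and Ccnd3 by 1.21 ± 0.17 and 1.34 ± 0.17, both coding for G1 cyclins. E2f7, a repressor E2F, stood at -1.96 ± 0.12 and -2.04 ± 0.12, Ccna2 fell by 1.88 ± 0.12 in PGC colonies and Cdc25a fell by 1.96 ± 0.49 in GSC colonies. Cdc25a reads 8.98 and 10.65 there against 11.90 and 11.65 in sorted cells. It was at -1.12 without GSC colony replicate 1 and -2.79 without replicate 2, and the call was lost without any 1 of the other 4 arrays (-1.85 to -2.09). Cdk2 was 0.60 ± 0.13 higher in PGC than in GSC colonies, a call lost without GSC colony replicate 2, PGC colony replicate 2 or either sorted array (0.50 to 0.61). Of 22 measured proliferation markers, 20 fell and 1 rose in GSC colonies (median -1.25), and 18 fell in PGC colonies (median -1.15), against 16 and 13 without scaling. Their summed level was 94400 to 101000 and 89400 to 94400 in colonies and 221000 to 229000 in sorted cells. Cdk1, counted among the falls in both comparisons, passed the filter only through the sorted arrays, where it is higher. It is given as at least 1.95-fold lower in either kind of colony. Ube2c, an enzyme of the anaphase-promoting complex pathway, fell by 2.68 ± 0.37 and Plk1, a mitotic kinase, fell by 2.72 ± 0.65 in GSC colonies. GSC colony replicate 1 is the lower array of both, and without it Ube2c was at -2.04 and Plk1 at -1.59, against -3.29 and -3.82 without replicate 2. The Plk1 call was lost without either sorted array (-2.65 and -2.82). The centromere histone gene Cenpa fell by 2.59 ± 0.18 and the spindle checkpoint gene Bub1 fell by 2.23 ± 0.21 in PGC colonies. Rrm2, a ribonucleotide reductase subunit, was the 1 that rose in GSC colonies, by 2.02 ± 0.21, and was at -2.54 ± 0.21 in PGC against GSC colonies. Between the colony groups 2 of the 22 were higher and 1 lower, where 7.08% of all genes were higher and 7.98% lower. The 2 were Mcm2 (0.58 ± 0.12) and Mcm3 (0.55 ± 0.13), each call lost in several fits with 1 array left out. The mitogen (ERK) response list, 19 genes measured, gave 7 higher and 7 lower in GSC colonies and 9 higher and 4 lower in PGC colonies, and 10 and 5, and 12 and 4, without scaling. Its unscaled medians were 0.443 and 0.734, beside 0.465 and 0.423 over all genes. Myc rose by 1.94 ± 0.14 and 2.33 ± 0.14 and the Ras pathway inhibitor Spred3 by 1.92 ± 0.14 and 2.08 ± 0.14, while Mycn stood at -3.73 ± 0.15 and -2.83 ± 0.15. Against GSC colonies 7 of the 19 were higher in PGC colonies and 1 lower, where 7.08% of all genes were higher and 7.98% lower. Phlda1 was at 1.58 ± 0.10 there and Dusp6, a phosphatase of ERK, at 1.17 ± 0.13.

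A list of 18 measured senescence-associated genes gave 8 higher and 5 lower in GSC colonies, and 10 higher and 4 lower in PGC colonies. Of all genes tested, 22.5% were higher and 24.5% lower, and 22.8% and 23.2%, in the same order. Without scaling 12 were higher and 4 lower in each, with list medians of 1.00 and 1.04 beside 0.465 and 0.423 over all genes. Igfbp5 was 4.94 ± 0.14 and 5.30 ± 0.14 higher, and Timp1, an inhibitor of metalloproteinases, 3.55 ± 0.11 higher in PGC colonies. Mmp3, which codes for stromelysin, exceeded its sorted level at least 66.3-fold in GSC colonies and stood at -5.24 ± 0.11 in PGC against GSC colonies. Lmnb1, the lamin B1 gene, stood at -2.41 ± 0.12 and -1.74 ± 0.12. Of the chemokine genes, Cxcl1 fell by 2.21 ± 0.12 in GSC colonies and Ccl2 fell by 1.24 ± 0.13 in PGC colonies.

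**Figure D4:**
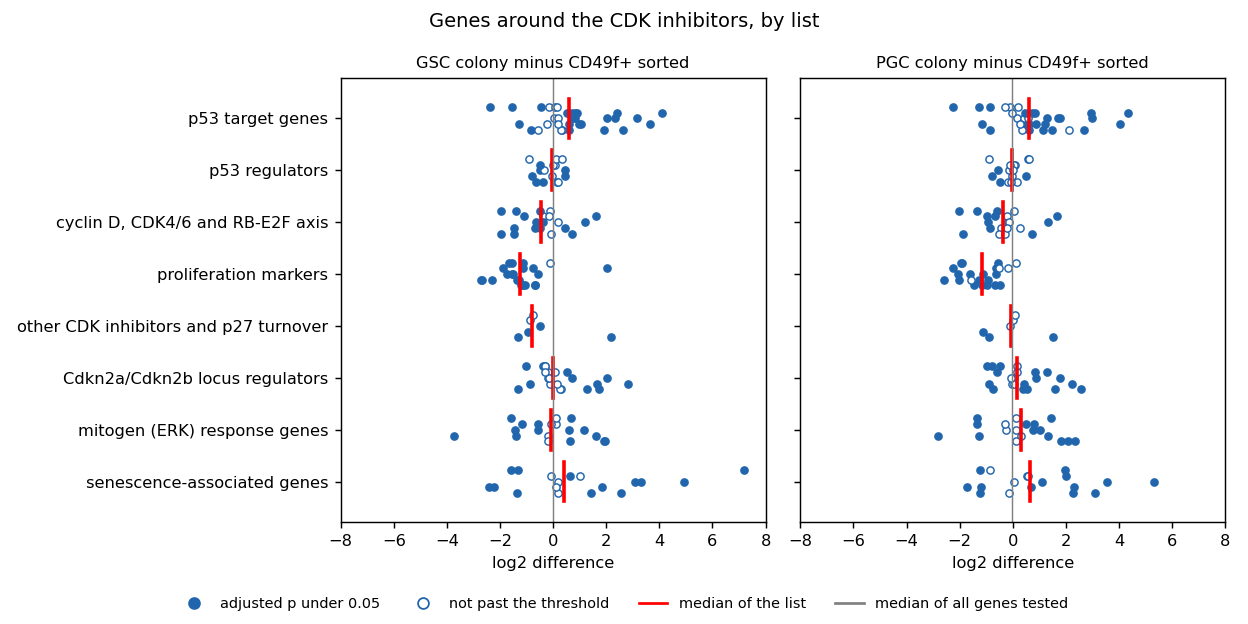
Log2 difference (x axis) of each measured gene of 8 lists (y axis), GSC colonies minus sorted cells on the left and PGC colonies minus sorted cells on the right; filled points have an adjusted p under 0.05, the red bar is the list median and the grey line the median of all genes. The median of the proliferation list lies left of 0 (-1.25 and -1.15) and that of the p53 target list right of it (0.60 and 0.62). Single genes lie on the other side, such as Rrm2 in GSC colonies (2.02) and Epha2 in both (-2.37 and -2.23). Both comparisons use the same sorted arrays.

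The genes whose profile over the 6 arrays lay nearest to each member were named by the root mean square difference of centred log2 values, without any statement on function. For Cdkn1a they were Lgi2 (0.133) and Vldlr (0.180), for Cdkn2b Rspo3 (0.272) and Tnnt2 (0.347), and for Cdkn2a Adamtsl1 (0.058) and Ets2 (0.074). Those of Ccng1 were Aebp1 (0.063) and Tead3 (0.092), of Mdm2 Il3ra (0.058) and Mocs3 (0.059), and of Ccnd1 Adam8 (0.023) and Lefty2 (0.027). Cdkn2c lay nearest to Secisbp2l (0.037) and Dazap2 (0.042), Cdkn2d to Cd151 (0.034) and Sertad1 (0.035), and Cdkn1b to Myo9b (0.098) and Cox7a2l (0.107). Myo9b and Cox7a2l are low on GSC colony replicate 1 as well, at 9.82 against 11.80 and 12.78 against 14.91 on replicate 2. This follows from their choice as the profiles nearest to Cdkn1b, which is low on that array.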

How the data were processed

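RNA of 6 samples was read on single-colour arrays. The values are probe intensity on a linear scale, deposited by the authors for 26423 probes; some lie below 0. The scanner, background method and genome build were not given in the sources used here. Per the labels' protocols, 1 µg of total RNA with an integrity number of at least 6 was amplified for each array. The deposited intensity was background corrected (normexp, offset 50), put on the log2 scale and quantile normalized between arrays. A gene with several probes was represented by its brightest probe on average over the arrays. It was tested where at least 2 of 6 arrays reached the 30th percentile of their array, a log2 level of 7.82. A single fit of all arrays (limma 3.58.1, R 4.3.3, lmFit and eBayes with 1 mean for each group and 3 residual degrees of freedom) gave 3 comparisons, each adjusted over 15459 genes by Benjamini-Hochberg, called at an adjusted p under 0.05, two-sided. The fit was tested on simulated data. Depth is known only as signal over the filter level, and precision is limited by how few arrays there are. Where both arrays of the dimmer group lie under the filter level, a fold is given as "at least", against the higher of that level and the probe's own value. Such a gene or probe passed the filter only through its other arrays. Alternatives changed scaling, background, filter, probe rule, samples, variance model and replicate block, and left out each array.

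The members and the 15 gene lists were chosen with earlier results of these data known. From each list, up to 2 genes with the largest rise and 2 with the largest fall among called genes without overlap were named for a comparison, beside all members and the 2 nearest profiles of each; other genes are named where a whole set is listed.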

Additional observations from a re-analysis of the deposited data

How the results depend on the processing

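Over 18 alternatives the number of the 9 measured genes called was 5 to 7 in GSC colonies against sorted cells (7 as reported) and 5 to 8 in PGC colonies against sorted cells (7). Between the colony groups it was 1 to 3 when an array was left out (3 as reported, and 1 without PGC colony replicate 1 or replicate 2). All genes called between the colony groups numbered 2329, and 1445 to 2039 with an array left out, the lowest without GSC colony replicate 1 and 1527 without PGC colony replicate 2. In the colony against sorted comparisons 7279 and 7111 genes were called, with ranges of 5193 to 9911 and 5046 to 9411. Without scaling between arrays the split was 8179 higher and 1732 lower in GSC colonies against sorted cells, 82.5% higher in place of 47.9%, and 80.5% in place of 49.5% in PGC colonies. Signs turned only for differences that did not pass or for Cdkn2c. Without scaling Cdkn2c was 0.17 and Cdkn2d 0.29 in GSC colonies against sorted cells, and Cdkn2d was 0.20 in PGC colonies. Between the colony groups Ccnd1 was -0.033 without scaling, -0.011 with median centring and -0.0055 with cyclic loess, and Cdkn1a was -0.028 and -0.0054 with the first 2. With an array left out Ccnd1 there ran from -0.036 to 0.065 and Cdkn2d from -0.147 to 0.040. Cdkn1b ran from -1.89 to 0.26 in GSC colonies and from -0.13 to 0.30 in PGC colonies against sorted cells, and from -0.18 to 1.97 between the colony groups. With a replicate block 6, 7 and 2 of the 9 genes were called in the 3 comparisons, and 6804, 6637 and 1707 genes in all; Cdkn2c in GSC colonies (adjusted p = 0.0824) and Ccng1 between the colony groups (adjusted p = 0.0761) lost their calls. The arrays share only a number: deviations of same-numbered arrays from their group means correlated at -0.342, -0.179 and 0.326 across 15459 genes. Counts of list genes without scaling or without GSC colony replicate 1, and values of named list genes with each array left out, were chosen after seeing the data. Without that array, 17 p53 targets were higher and 4 lower in GSC colonies, and 20 and 5 in PGC colonies. Groups of 2 arrays, and no detection calls, limit what small differences can show, and the cause of each change of sign or call was not tested.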
